A study of Mus musculus with 21 samples.

Results

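The genes described here are made mainly by the lining of the epididymis, the duct beside the testis in which sperm mature, and they were looked for in the epididymal fat, the visceral pad that lies against that duct. The list held 10 genes, and 8 of them had a probe with a single gene symbol among the 16248 genes measured; Crisp1 and Cst8 were left out because they had none. The 8 were Gpx5, Defb20, Lcn5, Lcn8, Lcn9, Adam7, Rnase9 and Rnase10, each with 1 probe. The list was chosen by the log2 levels on single arrays, read in earlier work on these data, so the levels are given as a description. The fitted comparisons between groups were not part of the rule that chose the genes. They use the same levels, so their p-values are not independent of that choice.

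Gene expression was measured on 21 GeneChip whole-transcript arrays, 3 in each of 7 groups of male C57BL/6J mice that arrived at 4 weeks of age, had 1 week of acclimation and then ate their diets for 12 weeks. H_FMG and L_FMG mice ate the high-fat diet with 0.9% and 0.3% by weight of fermented mixed grain, BC mice the same diet with 0.3% of Bacillus coagulans, a spore-forming bacterium, and SMG mice the same diet with 0.3% steamed grain. The label of the RMG mice gives a high-fat diet, and the protocols describe neither a supplement nor a dose for them. HFD mice ate the high-fat diet alone, with 40% of energy from fat, and ND mice the normal diet, with 10%. Arrays are named by group and by the number in their title. The labels do not say that the arrays of a group came from separate mice, so p-values measure the spread between these arrays, and 3 arrays per group limit the precision. Values are log2 levels, so a difference of 1 is a doubling.

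The epididymis secretes proteins into its lumen in a fixed order along its length. They coat sperm, carry small lipophilic molecules, defend against oxidation and microbes, and are needed for sperm to become motile and fertile. In the mouse most of these genes are strongly dependent on androgen or on factors from the testis, and many lie in clusters of related genes that arose by duplication. Lcn5, Lcn8 and Lcn9 lie on chromosome 2, as does Defb20, while Adam7, Rnase9 and Rnase10 lie on chromosome 14 and Gpx5 on chromosome 13.

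The arrays showed fat tissue: over the 21 arrays Fabp4, the fatty acid binding protein of adipocytes, lay between 11.98 and 12.32, Car3, a carbonic anhydrase abundant in adipocytes, between 11.99 and 12.71, and the adiponectin gene Adipoq between 8.68 and 9.80. The duct genes were dim. Their means over all arrays ran from 2.01 for Rnase10 to 4.15 for Lcn5, and all 8 lay below the median gene, at 4.72. No array read any of the 8 above 4.65. No detection calls came with the values, so whether a probe stood above background on a given array could not be read from them, and probes differ in brightness for reasons other than RNA amount.

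Promoter windows are shown for the 4 genes whose values the results turn on, Gpx5, Lcn8 and Lcn9, which were highest on the same array, and Defb20, the gene that passed the test. Each runs 5′ to 3′ on the gene's strand from 250 bases before to 50 bases after the RefSeq start (GRCm38.p6), and capitals mark AGAACA or its complement TGTTCT, the core to which the androgen receptor and its relatives bind.
Gpx5, chr13:21292637-21292936, minus strand: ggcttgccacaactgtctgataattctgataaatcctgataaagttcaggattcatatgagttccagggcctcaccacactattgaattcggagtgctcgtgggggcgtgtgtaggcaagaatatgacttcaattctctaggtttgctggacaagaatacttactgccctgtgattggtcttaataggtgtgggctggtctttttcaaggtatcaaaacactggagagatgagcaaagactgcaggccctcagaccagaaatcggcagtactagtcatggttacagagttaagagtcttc
Lcn8, chr2:25652868-25653167, plus strand: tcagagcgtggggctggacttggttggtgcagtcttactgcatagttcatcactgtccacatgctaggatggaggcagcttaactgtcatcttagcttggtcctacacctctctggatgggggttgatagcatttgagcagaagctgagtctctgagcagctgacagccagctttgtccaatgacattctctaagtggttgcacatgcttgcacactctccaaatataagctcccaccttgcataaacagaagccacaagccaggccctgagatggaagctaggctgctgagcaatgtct
Lcn9, chr2:25822903-25823202, plus strand: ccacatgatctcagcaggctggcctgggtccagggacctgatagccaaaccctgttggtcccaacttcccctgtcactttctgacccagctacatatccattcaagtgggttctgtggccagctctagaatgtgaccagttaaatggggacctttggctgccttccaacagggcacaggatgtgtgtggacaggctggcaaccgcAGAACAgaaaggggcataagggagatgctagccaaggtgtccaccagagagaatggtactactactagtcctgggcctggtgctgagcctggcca
Defb20, chr2:152476813-152477112, plus strand: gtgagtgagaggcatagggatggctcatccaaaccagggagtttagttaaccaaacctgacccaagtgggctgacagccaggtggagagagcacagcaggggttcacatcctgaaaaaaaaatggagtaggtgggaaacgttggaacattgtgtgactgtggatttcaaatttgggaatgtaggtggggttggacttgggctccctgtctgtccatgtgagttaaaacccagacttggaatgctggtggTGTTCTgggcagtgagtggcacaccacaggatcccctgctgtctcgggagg
On either strand, AGAACA was found in 6 of the 10 windows held for 9 of the listed genes (Lcn9, Defb20, Rnase9, Crisp1 and both windows of Rnase10), against 19.0% of 32851 mouse promoter windows of the same length. The 2 Rnase10 windows overlap and share their matches. The full androgen receptor site, this core and its complement facing each other, and the ETS factor site CCGGAAGT were in 0 of the 10 windows. They were in 0.00913% and 3.89% of all windows. A match is a run of letters and not a shown binding site.

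Gpx5 encodes a secreted glutathione peroxidase of the caput, the head of the epididymis, that protects sperm membranes from peroxides. It read 2.50, 2.52 and 2.24 in H_FMG, 2.31, 3.03 and 2.43 in L_FMG, 2.09, 2.62 and 2.70 in BC, 2.97, 3.72 and 2.98 in RMG and 2.46, 2.38 and 3.22 in SMG fat. It read 2.23, 2.15 and 1.89 in HFD fat and 2.05, 2.53 and 2.83 in ND fat. RMG array 9 was the highest of the 21 arrays, and all 3 RMG arrays lay above all 3 HFD arrays. RMG fat averaged 3.23 ± 0.43 and HFD fat 2.09 ± 0.18 (log2 level ± SD, n = 3 each), and the gap of 0.54 between RMG and the next group, SMG, exceeded the residual SD of 0.35 between arrays of a group. The gaps between the other neighbours in the order of groups were smaller than that SD.

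**Figure D1:**
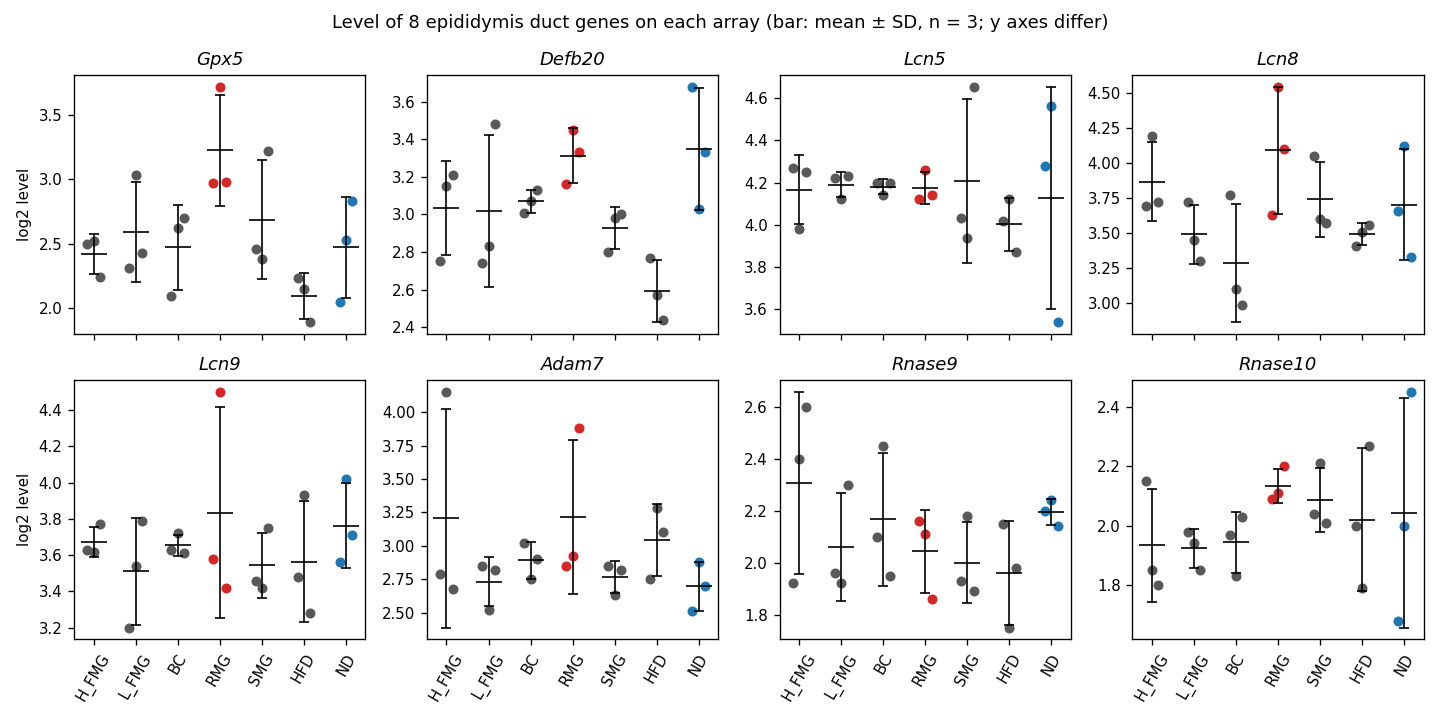
Log2 level (y axis, scaled separately for each gene) of the 8 epididymis duct genes on each of 3 arrays per group (points), with the group mean ± SD (bars); RMG is red and ND blue. Gpx5, Lcn8 and Lcn9 have their highest point in RMG, at 3.72, 4.54 and 4.50, and Defb20 lies between 2.44 and 2.77 in HFD.

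Lcn5, Lcn8 and Lcn9 encode lipocalins, small secreted proteins with a barrel-shaped pocket for lipophilic ligands; the product of Lcn5 binds retinoic acid. Lcn8 read 3.63, 4.54 and 4.10 in RMG fat, against 3.41, 3.51 and 3.56 in HFD fat and 3.66, 4.12 and 3.33 in ND fat. All RMG arrays lay above all HFD arrays, while RMG and ND overlapped. In the other groups Lcn8 ranged from 3.69 to 4.19 in H_FMG, 3.30 to 3.72 in L_FMG, 2.99 to 3.77 in BC and 3.57 to 4.05 in SMG.

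Lcn9 read 3.58, 4.50 and 3.42 in RMG fat, against 3.48, 3.93 and 3.28 in HFD fat and 3.56, 4.02 and 3.71 in ND fat. Its high value was that of RMG array 9, and the remaining RMG arrays lay within the HFD range. Lcn5 had the highest mean level and the smallest residual SD of the lipocalin probes, with group means between 4.0 in HFD and 4.2 in SMG. Its extremes were SMG array 12, at 4.65, and ND array 9, at 3.54. For Lcn5, Lcn8 and Lcn9 every gap between neighbouring groups was below the residual SD of 0.26, 0.33 and 0.30.

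Defb20 encodes a beta-defensin, a small cationic peptide of a family that acts on microbes and coats sperm. It read 2.77, 2.57 and 2.44 in HFD fat, against 3.68, 3.03 and 3.33 in ND fat, and the groups did not overlap. It read 3.16, 3.45 and 3.33 in RMG, 3.01, 3.07 and 3.13 in BC, and 2.80, 2.98 and 3.0 in SMG fat, each group wholly above HFD. H_FMG arrays read 2.75, 3.15 and 3.21 and L_FMG arrays 2.74, 2.83 and 3.48, with the lowest array of both inside the HFD range.

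Adam7, a membrane protein of the ADAM family without protease activity that is passed to sperm, was flat on most arrays and high on 2. It read 2.79, 4.15 and 2.68 in H_FMG fat and 2.85, 2.92 and 3.88 in RMG fat, against 2.75, 3.28 and 3.10 in HFD fat and 2.51, 2.88 and 2.70 in ND fat. The high arrays were H_FMG array 6 and RMG array 10, and no group stood apart as a whole. Its residual SD of 0.41 exceeded that of 96.7% of the 2502 genes within 0.5 log2 units of its level, against 94.2% for Gpx5 and 92.9% for Lcn8.

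Rnase9 and Rnase10, members of the ribonuclease A family whose epididymal products have lost the catalytic activity of the family, were the dimmest. Rnase9 lay between 1.75 in HFD array 6 and 2.60 in H_FMG array 8, and Rnase10 between 1.68 in ND array 6 and 2.45 in ND array 9. Their residual SDs of 0.22 and 0.20 were near the middle of genes of like level, exceeding 58.2% and 48.1% of them. No gap between neighbouring groups exceeded the residual SD in either gene.

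**Figure D2:**
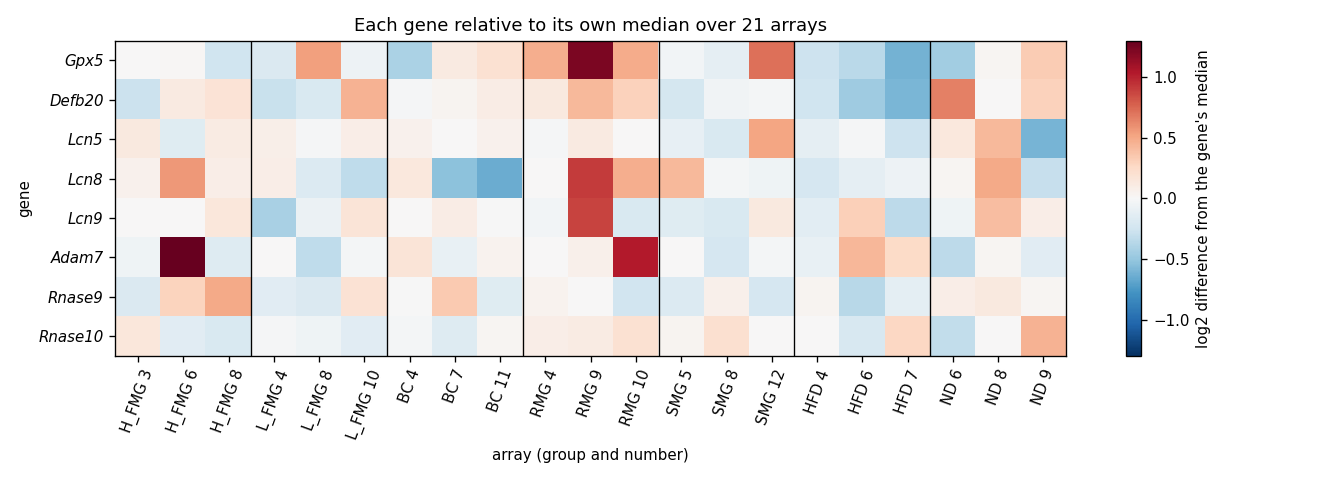
Log2 difference of each gene (rows) from its own median over the 21 arrays (columns, by group and array number; red above, blue below). RMG array 9 is red for Gpx5, Lcn8 and Lcn9, while the high Adam7 values lie on H_FMG array 6 and RMG array 10, and Rnase9 and Rnase10 stay pale.

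The comparison of HFD with ND asks what high-fat feeding did. Defb20 fell in HFD fat, and the other 7 duct genes did not pass. It averaged 2.59 ± 0.17 in HFD and 3.35 ± 0.32 in ND fat (SD, n = 3 each), a log2 change of -0.76 ± 0.18 (SE; adjusted p = 0.0144, limma with Benjamini-Hochberg adjustment over all genes). In this whole tissue, fewer cells that make a transcript and less of it per cell cannot be told apart. Thus 1 of 8 genes passed, where 8.63% of all genes did, and it fell, as did 2.09% of all genes and 2.52% of the genes below the median level. The arrays of the groups did not overlap, with HFD lower, for 1 of the 8, against 13.0% of all genes. Of the 8 genes 7 had a negative change, with a median of -0.21, while the median was -0.04 over all genes and -0.14 over the genes below the median level.

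Macrophage genes moved with this comparison: 12 of 12 measured rose, with a median change of 1.17 and mean levels per array of 9.03 to 9.29 in HFD and 7.58 to 8.25 in ND fat. Of 8 adipocyte genes 2 fell (Pck1 and Acvr1c), with a median change of -0.26 and mean levels of 10.21 to 10.44 in HFD and 10.38 to 10.82 in ND fat. The part of either list in the Defb20 result was not tested. The call on Defb20 was lost when only HFD and ND arrays were fitted (adjusted p = 0.0509). It was also lost when ND array 6 (0.0617), array 6 of HFD (0.0648) or its array 7 (0.0654) was left out, with changes from -0.76 to -0.59 in these settings. Among the other 7 genes the changes ran from -0.38 ± 0.26 for Gpx5 (adjusted p = 0.364) to 0.35 ± 0.29 for Adam7 (adjusted p = 0.477).

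The comparison of RMG with HFD sets that group against the high-fat diet alone, and no duct gene passed. Gpx5 differed by 1.14 ± 0.26 (unadjusted p = 0.000244), Defb20 by 0.72 ± 0.18 (unadjusted p = 0.000874) and Lcn8 by 0.60 ± 0.24 (unadjusted p = 0.021; limma, n = 3 against 3), and each had an adjusted p of 1. Limma called 0 of 16248 genes here (0%), with 458 at an unadjusted p under 0.05, which is 2.82%. The RMG arrays lay wholly above the HFD arrays for 3 of the 8 genes, against 6.35% of all genes. Without RMG array 9 the changes were 0.89 for Gpx5, 0.65 for Defb20 and 0.37 for Lcn8, and the adjusted p of each stayed at 1. All 8 changes were positive, with a median of 0.22, against 0.01 over all genes. Other lists moved as uniformly in this comparison: 12 of 12 macrophage genes were positive (median 0.25), and 8 of 8 adipocyte genes (median -0.25) and 5 of 5 smooth muscle genes (median -0.19) negative, with 0 called in each. Their part in the values of the duct genes was not tested.

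In the remaining comparisons no duct gene passed. Limma called 0% of genes in BC, SMG and L_FMG against HFD and in H_FMG against L_FMG, and 0.00615% in H_FMG against HFD. At an unadjusted p under 0.05 there were 5.18% of genes in BC, 1.85% in SMG, 8.66% in L_FMG and 14.5% in H_FMG fat, each against HFD, and 636 genes in H_FMG against L_FMG. Gpx5 differed from HFD by 0.60 ± 0.26 in SMG fat (unadjusted p = 0.0299), and Defb20 by 0.48 ± 0.18 in BC (0.0174), 0.43 ± 0.18 in L_FMG (0.032) and 0.44 ± 0.18 in H_FMG fat (0.0265), each by limma with 3 arrays a group. The adjusted p-values of these 4 lay between 0.275 and 1. The arrays wholly above those of HFD belonged to 2 of the 8 genes in BC (Defb20 and Lcn5), 3 in SMG (Gpx5, Defb20 and Lcn8), 2 in L_FMG (Gpx5 and Lcn5) and 2 in H_FMG fat (Gpx5 and Lcn8), against 7.11%, 4.75%, 7.3% and 10.7% of all genes. Several of these separations were narrow. In SMG, the lowest array and the highest HFD array read 3.57 and 3.56 for Lcn8 and 2.80 and 2.77 for Defb20. For Lcn5 they read 4.12 and 4.12 in L_FMG and 4.14 and 4.12 in BC, and for Gpx5 2.24 and 2.23 in H_FMG. The other separations were wider. Each of these comparisons uses 1 set of 3 HFD arrays, in which Gpx5 and Defb20 were low, so they are not separate evidence. H_FMG against L_FMG, the comparison of doses, gave changes from -0.17 ± 0.26 for Gpx5 to 0.48 ± 0.29 for Adam7. The moderated F test over all 7 groups passed for 0 of the 8 genes, against 6.47% of all genes, with the smallest adjusted p at 0.11 for Defb20 and 0.12 for Gpx5.

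**Figure D3:**
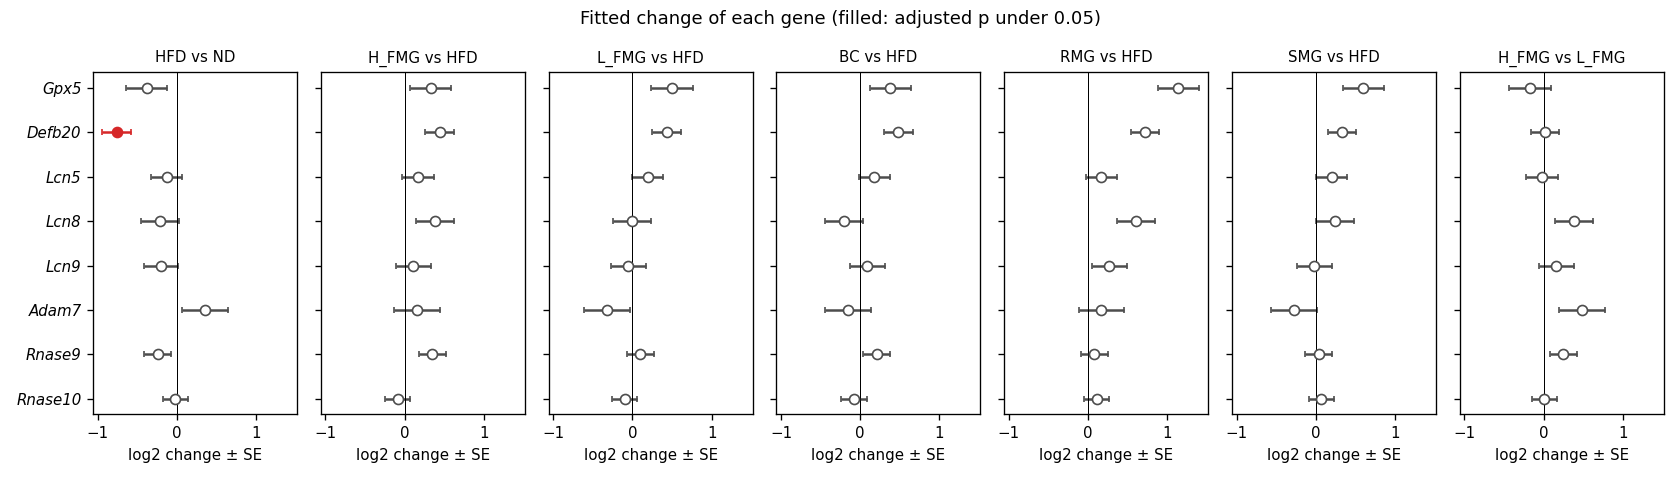
Fitted log2 change ± SE (x axis) of each duct gene (rows) in 7 comparisons, the group named before "vs" minus the one after it, with 3 arrays per group. Defb20 in HFD against ND, at -0.76, is the filled point; the open points did not pass, among them Gpx5 in RMG against HFD at 1.14.

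By group means, RMG was the highest group for 5 of the 8 genes (Gpx5, Lcn8, Lcn9, Adam7 and Rnase10), as it was for 19.8% of all genes and 9.54% of the genes below the median level. HFD was the lowest group for 4 (Gpx5, Defb20, Lcn5 and Rnase9), as it was for 15.4% of all genes and 23.1% of those below the median level. Most steps in these orders were small: 45 of the 48 gaps between neighbouring groups were below the gene's residual SD. The exceptions were the gap between RMG and SMG for Gpx5 and, for Defb20, those between RMG and BC and between SMG and HFD.

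The duct genes showed little correlation with each other. Over the 21 arrays the 28 pairs of genes had a median Pearson r of 0.09, from -0.49 to 0.51, and the highest belonged to Gpx5 with Lcn9, for which Spearman's rho was 0.26 and r without RMG array 9 was 0.15. These correlations are a description over arrays that share their processing, and no p is given. RMG array 9 was highest of all arrays for 3 of the 8 genes, as it was for 6.53% of all genes, and read 7 of the 8 above their own medians. Its mean difference from those medians was 0.46, against 0.25 for RMG array 10 and for H_FMG array 6, and -0.19 for HFD array 7, the lowest.

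Sperm genes were also highest on RMG array 9, for 6 of 11 measured, against 6.53% of all genes. Tnp2, which encodes a transition protein that replaces histones in spermatids, read 5.59 there and at most 4.33 elsewhere. Smcp, for a capsule protein of sperm mitochondria, read 4.47, against at most 3.43, the protamine gene Prm1 5.45, against at most 4.77, and Crisp2, a secretory protein gene of the testis, 4.45, against at most 3.92. Odf1, for a fibre protein of the sperm tail, has 2 probes. Both read highest on this array, at 11.59 and 4.26, against at most 11.53 and 3.69 elsewhere. Their ranges over all arrays were 10.89 to 11.59 and 3.02 to 4.26. Tnp1, another transition protein gene, read 4.62 on RMG array 9, against at most 4.30 elsewhere. The remaining sperm genes peaked on other arrays, and the acrosin gene Acr read 5.23 on RMG array 9 and 5.82 on H_FMG array 8. The mean difference of the sperm list from its gene medians was 0.65 on RMG array 9. Its mean level per array ran from 4.02 to 4.85 in RMG fat, from 4.10 to 4.48 over the H_FMG, L_FMG, BC and SMG arrays, from 4.06 to 4.34 in HFD and from 4.18 to 4.26 in ND fat. On the same array macrophage genes stood at 0.60 and adipocyte genes at -0.47. The part of any of these in the values of Gpx5, Lcn8 and Lcn9 was not tested.

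The list of 13 measured epithelial genes had its largest mean differences on L_FMG array 4, at 0.67, and BC array 11, at 0.55, where the 8 duct genes stood at -0.11 and -0.05. Both lists were raised on RMG array 10, where the epithelial genes stood at 0.28 and the duct genes at 0.25. On SMG array 12 the means were 0.15 and 0.13, but the duct genes had a median difference of -0.01 there. Of the 8 duct genes, 4 lay above their own medians on that array, with Gpx5 the furthest above, at 0.72. On RMG array 9 the epithelial list stood at 0.01. The epithelial adhesion gene Epcam read 4.98 on L_FMG array 4 and 4.89 on BC array 11 and at most 3.64 elsewhere, and 2.77 on RMG array 9. Pax8, a transcription factor gene of the excurrent ducts, read 4.97 and 5.21 on the same arrays, and Cftr, a chloride channel gene of duct epithelium, 4.53 and 4.31. Both belong to a list of 16 other duct genes, whose mean difference was 0.14 on L_FMG array 4 and 0.20 on BC array 11. Pax8 had the largest difference of the 16 on these arrays, at 1.80 and 2.05. Of the 16 genes, 1 was highest of all arrays on L_FMG array 4 and 2 on BC array 11, against 6.04% and 3.45% of all genes. Pax8 and Cftr therefore do not stand for the list as a whole. The 5 mesothelial genes, which mark the outer covering of the pad, were highest on ND array 6, at 1.10 above their medians, and stood at 0.29 on RMG array 9.

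**Figure D4:**
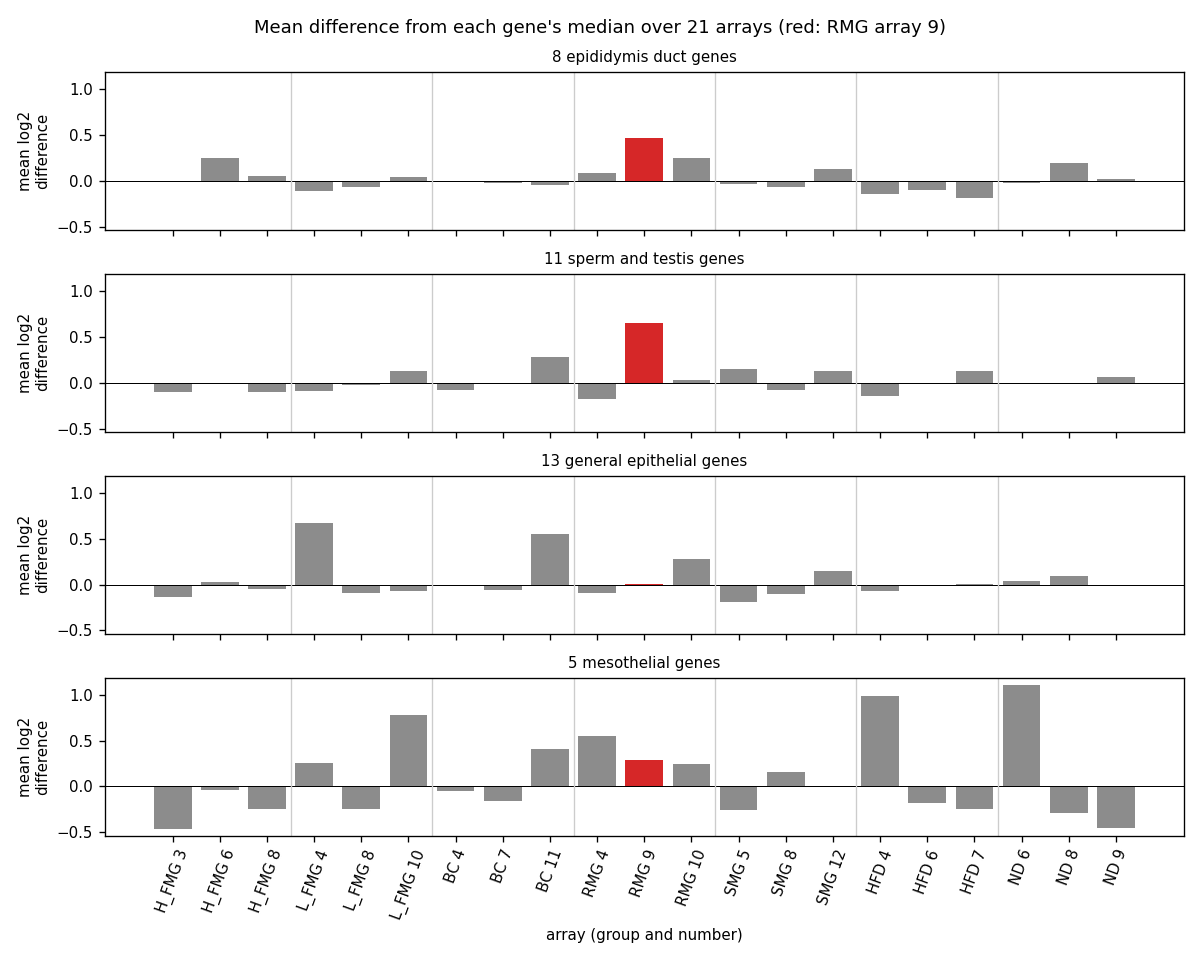
Mean log2 difference from each gene's median over the 21 arrays (y axis) for 4 gene lists on each array (x axis, by group and array number; RMG array 9 red). The 8 duct genes and the sperm genes peak on RMG array 9, at 0.46 and 0.65, and the epithelial genes on L_FMG array 4 and BC array 11, at 0.67 and 0.55.

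Of 62 further genes of the epididymis (other lipocalins, ribonucleases, cystatins and beta-defensins, protease inhibitors and other duct genes), 54 were measured. In HFD against ND 1 rose and 2 fell, while 8.63% of all genes passed in either direction and 2.09% passed as lower. Cd52, a surface glycoprotein gene that lymphocytes also express, rose by 0.96 ± 0.21 (adjusted p = 0.00788, limma). Wfdc16, of a family of small protease inhibitors, fell by 0.67 ± 0.15 (adjusted p = 0.00749), and Ly6g5c, of the Ly6 family of surface proteins, fell by 0.50 ± 0.16 (adjusted p = 0.049, limma). Wfdc16 lost the call with the HFD and ND arrays alone (adjusted p = 0.0517) and without HFD array 6 (0.057), and Ly6g5c under quantile normalization (0.147) and in most other settings. The median change of the 54 was -0.15, close to that of all genes below the median level. In each of the other 6 comparisons 0 of the 54 passed.

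The 10 genes whose values over the 21 arrays were most like the mean of the duct genes, by Pearson r, were Asgr1, Cxcl5, Slfnl1, Slc2a7, Cldn9, Lcn6, Riox1, Igsf9, Lin28a and Ear6, with r from 0.65 to 0.77. Of these, 8 were highest on RMG array 9, against 6.53% of all genes. They were picked for likeness to a mean that was itself highest on that array, so the count follows in part from the choice. Lcn10 and Lcn12, further measured lipocalin genes of the epididymis, were not among the 10. Lcn6, another lipocalin gene of the epididymis on chromosome 2, had an r of 0.68, and 0.62 without that array. Asgr1, for a receptor subunit known from the liver, had 0.77, and 0.56 without it. Of the 10 genes 1 remained among the 10 most alike when that array was left out, so the order rests on it.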

How the data were processed

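The deposited values were log2 levels, with 1 value per probe and array. Trizol was used for RNA extraction and biotin for labelling, per the labels' protocols. The sources used here do not state how the authors summarised, background-corrected and normalized the probes. The log base was taken from the values, which ran from 0.844 to 12.713. The table was held in part, and genes of some chromosomes were mostly not analysed here. Of its 24292 probes, 24291 were complete and 17067 had 1 gene symbol in the platform annotation. The brightest probe stood for each of 16248 genes, updated to GRCm38.p6 symbols. One linear model held all 21 arrays and 7 group means (limma 3.58.1, R 4.3.3, intensity trend), and genes were tested two-sided with Benjamini-Hochberg adjustment over all genes at 0.05; the fit was tested on simulated data. The genes named are the 8 listed ones, members of the marker lists that passed (up to 4 a list), and the 10 most alike. Lcn10 and Lcn12 are named beside Lcn6. The sperm and epithelial genes named singly, and Pax8 and Cftr, were picked after their values were seen. Genes and lists were chosen with earlier results of these data known. Planned protein comparisons were not run. No scan date or batch was used here. Alternatives were quantile normalization, a fit of the compared groups alone, dim genes left out, every probe tested, the title's number as a block, and each array left out.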

Additional observations from a re-analysis of the deposited data

How the results depend on the processing

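With 3 arrays a group, leaving out single arrays moved several counts. In HFD against ND 1403 genes passed, against 774 with those groups fitted alone, 524 with the title's number as a replicate block, and 368 to 1457 with 1 array left out (368 without HFD array 6, 826 without HFD array 7). The call on a duct gene there, Defb20, became 0 of 8 with the groups fitted alone, 0 with the replicate block (-0.70, adjusted p = 0.163) and 0 to 1 with an array left out; under quantile normalization it held (-0.61, adjusted p = 0.0364), as with every probe tested (0.0212). In H_FMG against HFD 1 gene passed, against 0 with every probe tested, 26 with the replicate block, 257 without H_FMG array 3, and 0 without any 1 of the other 5 arrays. In L_FMG against HFD 3 genes passed with the groups fitted alone and 0 otherwise, and in SMG against HFD 0 to 1 with an array left out. The F test passed for 1051 genes, and for 567 to 1485 with an array left out, lowest without ND array 8 (567), RMG array 4 (572), RMG array 9 (665) and RMG array 10 (679); 0 to 1 duct gene passed, which was Defb20 without L_FMG array 10. With the replicate block Wfdc16 (adjusted p = 0.0658) and Svs3a (0.0906) lost their calls in HFD against ND, and Gpx5 in SMG against HFD turned to -0.05. The cause of these shifts was not tested. The numbers are not known to pair arrays: same-numbered arrays of compared groups, at most 2 pairs a comparison, had correlations from -0.17 to 0.15. All 8 duct genes fall below the filter on dim genes, so that setting gives them no value. Of the 10 most alike genes, 2 stayed with Spearman's rho and 0 with deviations from group means. Signal over background is unknown, which limits every value of these dim probes.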

Other observations

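Svs3a, a seminal vesicle secretory protein gene, was the 1 of 8 measured genes of the seminal vesicle and prostate list that passed in HFD against ND. It read 1.25, 1.43 and 1.27 in HFD fat, against 2.02, 2.13 and 2.14 in ND fat, and fell by 0.78 ± 0.17 (adjusted p = 0.00788, limma). The highest of the 21 arrays was H_FMG array 6, at 2.35, the array with the highest Adam7 value, 4.15. Closely similar Svs genes lie beside it, so the gene that the probe reads is uncertain.

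Among 5 measured smooth muscle genes, which also mark the muscle coat of the duct, Myh11, the smooth muscle myosin heavy chain gene, fell by 0.93 ± 0.21 in HFD against ND (adjusted p = 0.00897, limma); without HFD array 6 the adjusted p was 0.0595. The other 4 did not pass, 2 of the 5 changes were positive, and the median was -0.06.

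Of the 11 sperm genes Odf1, read by its brighter probe, rose by 0.52 ± 0.11 in HFD against ND (adjusted p = 0.00811, limma), and the other 10 did not pass there. The probes of Odf1 disagree: the dimmer one read 3.36, 3.28 and 3.52 in HFD fat, against 3.52, 3.69 and 3.52 in ND fat, so its difference has the opposite sign. Acr, the gene of the sperm protease acrosin, was the 1 gene called in H_FMG against HFD. It read 5.70, 5.66 and 5.82 in H_FMG fat, against 5.18, 4.89 and 5.14 in HFD fat, a change of 0.66 ± 0.10 (adjusted p = 0.0342, limma). The call was lost with every probe tested and without any 1 of H_FMG arrays 6 and 8 and HFD arrays 4, 6 and 7, settings in which 0 genes passed.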
